A study of Homo sapiens with 2 samples.

Results

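The BCL6 and LPP locus was defined as the peaks on chromosome 3 whose highest point lay between 187.40 and 188.65 Mb on hg19. It held 53 of the 24824 peaks listed for KMT2D. From low to high coordinate the locus was divided into a BCL6 stretch (187.44 to 187.464 Mb, 9 peaks), an intergenic stretch (187.464 to 187.87 Mb, 28 peaks) and an LPP stretch (187.87 to 188.61 Mb, 15 peaks). The remaining peak, of height 18, lay below BCL6 at 187437570 to 187437678, and the last 40 kb beyond LPP held 0. BCL6 is read from high to low coordinate, so the intergenic stretch lies upstream of BCL6 and also upstream of LPP, which is read the other way. The gene boundaries are rounded, and no peak was cut by one.

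The peaks came from 1 chromatin immunoprecipitation and sequencing (ChIP-seq) library of OCI-LY7, an established diffuse large B-cell lymphoma line of the germinal centre (GCB) type, labelled wild type, and was made with an antibody against the N-terminus of KMT2D. The series also holds 1 input library, made without antibody from the same line, whose own values were not analysed here. The labels give no treatment other than fixation with 1% formaldehyde. Because there was 1 ChIP library, no value could be checked in a replicate, and its sequencing depth is unknown. Intervals given below are at 95% and cover counting error over peaks only; peaks lie in groups and are not independent, so no p-value was computed.

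KMT2D (MLL4) is a methyltransferase that adds methyl groups to histone H3 at lysine 4, mainly at enhancers, and B-cell lymphomas often carry mutations that inactivate it. BCL6 encodes a transcriptional repressor that germinal centre B cells need, and its gene is a common site of chromosomal rearrangement in lymphoma. LPP encodes a LIM domain protein of cell adhesion sites and hosts the microRNA gene MIR28. Enhancers of BCL6 in germinal centre B cells are known to lie far upstream of the gene. The peak list holds no histone mark and no expression value, so the peaks are described by position and are not called enhancers. By gene order alone, the RefSeq table of GRCh38 lists 0 protein-coding genes between BCL6 and LPP. It lists 6 long non-coding RNA genes there, LINC01991 among them. SST and RTP2 are the protein-coding genes on the other side of BCL6, and TPRG1 is the first one after LPP.

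The 2 promoters are shown because the tallest peak of each gene lay at its 5′ boundary. They come from RefSeq (GRCh38.p14), for the first start listed for each gene, and run from 250 bases before the start to 50 bases after it. They were not placed against the hg19 peaks base by base. BCL6 lies at chr3:187745419-187745718 on the minus strand and LPP at chr3:188153648-188153947 on the plus strand. Capitals mark matches to TTCNNNGAA, the spaced palindrome that STAT proteins are known to bind.
BCL6 promoter: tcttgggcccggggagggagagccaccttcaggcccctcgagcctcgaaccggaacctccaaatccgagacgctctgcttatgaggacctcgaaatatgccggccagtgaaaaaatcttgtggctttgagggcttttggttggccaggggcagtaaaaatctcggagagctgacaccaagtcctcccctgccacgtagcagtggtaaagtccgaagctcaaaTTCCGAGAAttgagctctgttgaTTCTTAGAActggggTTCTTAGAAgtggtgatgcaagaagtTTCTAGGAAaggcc
LPP promoter: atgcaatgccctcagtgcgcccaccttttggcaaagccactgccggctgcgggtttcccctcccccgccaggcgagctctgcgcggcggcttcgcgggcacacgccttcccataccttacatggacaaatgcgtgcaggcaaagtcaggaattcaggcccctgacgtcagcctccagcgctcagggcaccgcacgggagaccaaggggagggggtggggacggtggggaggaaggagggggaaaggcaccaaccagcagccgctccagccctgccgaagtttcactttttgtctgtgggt
The BCL6 window held 4 matches to TTCNNNGAA, starting at positions 223, 246, 261 and 287 counted from the 5′ end. Of 27305 promoters of the same length, 7.88% held at least 1 such match and 6 held at least 4. The match at 287 was also, on the opposite strand, a match to TTCCTAGAA, a sequence that BCL6 itself is known to bind, which 0.403% of promoters held. The LPP window held 0 matches to either. Neither window held the GC box GGGCGG (in 44.6% of promoters), the E-box CACGTG (7.43%), the ETS sequence GGGAAGTG (2.82%) or the TATA box TATAAA (11.95%), each searched on both strands. The BCL6 window was 53% G and C, the LPP window 64.7%, and the median promoter 58.3%. These matches describe the letters in the windows and are not evidence of binding.

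KMT2D peaks were far more closely spaced at this locus than on the rest of chromosome 3. The locus had 42.4 peaks per Mb (exact Poisson interval 31.8 to 55.5), against 6.92 peaks per Mb (6.56 to 7.298) over the 1358 peaks of the rest of the chromosome. The ratio was 6.13 (exact conditional interval 4.57 to 8.06). Peaks covered 2.39% of the locus and 0.4995% of the rest of the chromosome, a ratio of 4.79 in covered bases. Among tiles of 1.25 Mb laid end to end along chromosome 3 from the locus, 0 of the 158 others held as many peaks, and the fullest of them held 42. By covered bases, 2 of these tiles exceeded the locus. Over chromosomes 1 to 22 and X, 45 of 2363 other tiles held more than 53 peaks.

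**Figure D1:**
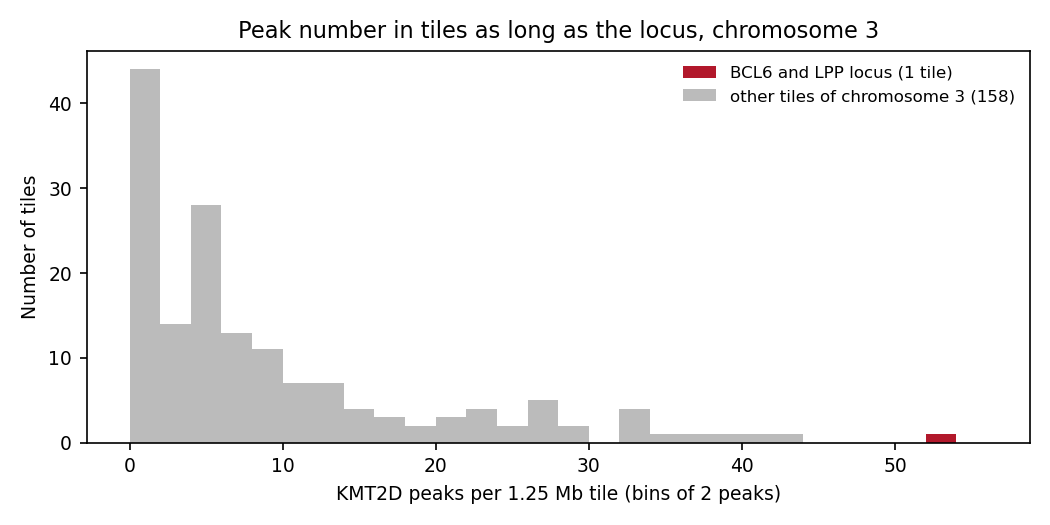
Number of KMT2D peaks (x axis) in tiles of 1.25 Mb along chromosome 3, with the number of tiles on the y axis. The locus, in red, held 53 peaks, and the 158 other tiles held at most 42.

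The surroundings of the locus were unequal. The 1.25 Mb just below it, on the BCL6 side, held 35 peaks, with a median height of 36 in the authors' units. The 1.25 Mb just above it, beyond LPP, held 1 peak, of height 59. From the end of the last peak in LPP to the next listed peak there were 571 kb. On the other side, the nearest peak outside had its highest point 12.5 kb below the locus.

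The locus stood out by number of peaks and not by their height. Its 53 peaks had a median height of 31 (order-statistic interval 27 to 35), against 38 (36 to 39) on the rest of the chromosome. Of the 53, 13 were above the median height of 39 over chromosomes 1 to 22 and X. Among the highest-scoring 50% of all peaks the locus kept 11, and its ratio to the rest of chromosome 3 was 2.69 (1.34 to 4.85). Among the highest-scoring 25% it kept 5, and the interval of the ratio of 2.52 (0.814 to 5.95) included 1. The median width was 473 bp (313 to 653 bp) in the locus and 650.5 bp (607 to 691 bp) on the rest of the chromosome. Wider peaks were taller, with Spearman's rho at 0.89 and Pearson's r at 0.72 across the 53 peaks; they share 1 library and 1 caller, and over chromosomes 1 to 22 and X the values were 0.84 and 0.68.

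**Figure D2:**
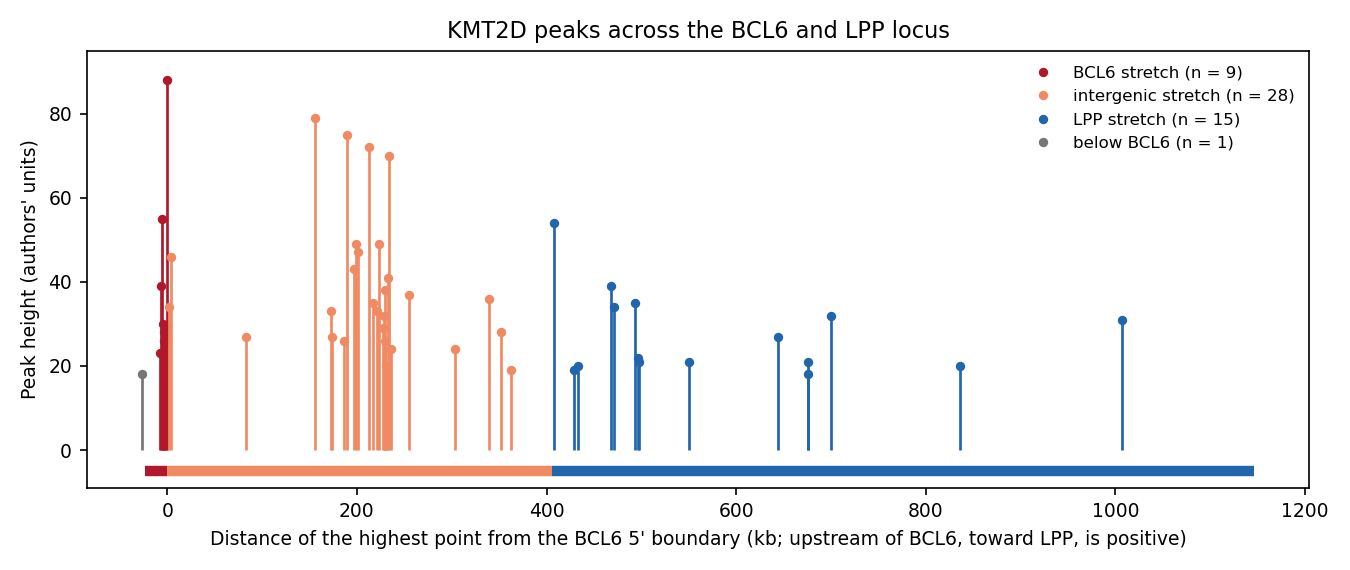
Height of each of the 53 KMT2D peaks (y axis, authors' units) against the distance of its highest point from the BCL6 5′ boundary in kb (x axis, upstream positive), with the BCL6, intergenic and LPP stretches as coloured bars under the axis. The tallest peak, of height 88, stands at the boundary, and peaks of height 70 to 79 stand between 156.2 and 233.4 kb upstream.

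Averaged over each whole stretch, peak density differed in steps between the 3 stretches and was highest in BCL6. The stretches are unlike in length, at 24, 406 and 740 kb, so the longer ones average over dense and empty parts. Inside the intergenic stretch, 17 peaks from 187650245 to 187700348, a span picked by its peaks, covered 22.1% of 50.1 kb. That share was close to the share covered in the whole BCL6 stretch, given below. The BCL6 stretch had 375 peaks per Mb (171.5 to 711.9), the intergenic stretch 68.97 (45.8 to 99.7) and the LPP stretch 20.3 (11.3 to 33.4). BCL6 exceeded LPP 18.5 times (exact conditional interval 7.14 to 45.1), and the intergenic stretch exceeded LPP 3.402 times (1.76 to 6.85). BCL6 exceeded the intergenic stretch 5.44 times (2.26 to 11.8). The ratios that involve BCL6 rest on how finely the authors' caller divided its peaks. After peaks under 500 bp apart were merged, BCL6 had 2 peaks, and its ratios were 4.405 over LPP (0.486 to 19.2) and 1.47 over the intergenic stretch (0.168 to 5.95). Covered bases depended less on that division. Peaks as listed covered 21.6% of the BCL6 stretch, 4.45% of the intergenic stretch and 0.881% of the LPP stretch, and merged peaks covered 27.2%, 4.71% and 0.898%. Among the highest-scoring 50% of peaks, BCL6 kept 2 peaks, and its ratio over the intergenic stretch was 4.83, with an interval (0.490 to 25.4) that included 1.

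**Figure D3:**
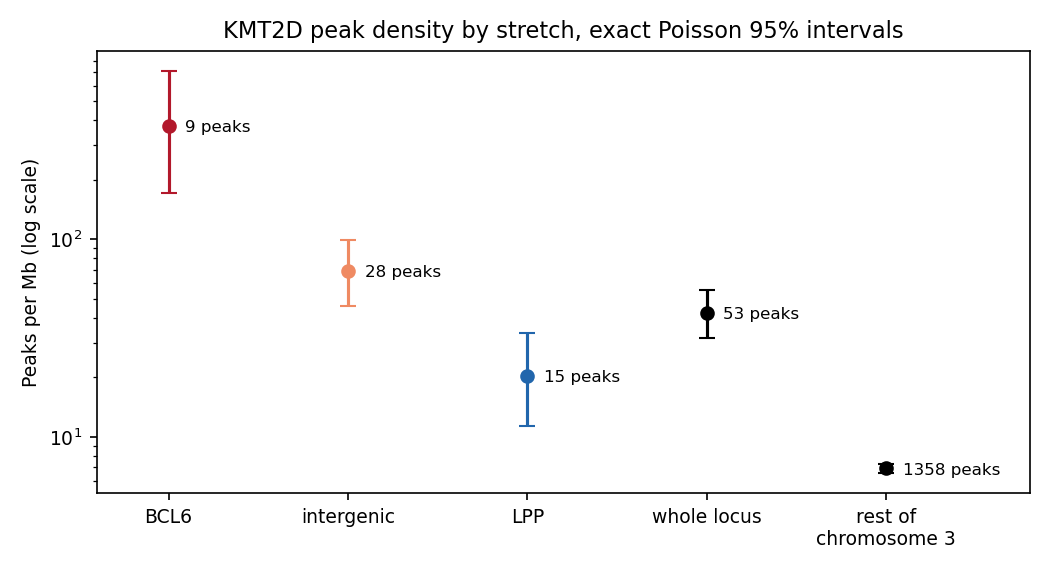
KMT2D peaks per Mb on a log scale (y axis) in the BCL6, intergenic and LPP stretches, the whole locus and the rest of chromosome 3, with exact Poisson 95% intervals as bars. The intervals of the BCL6, intergenic and LPP stretches do not overlap one another, at 375, 68.97 and 20.3 peaks per Mb. They cover counting error only and treat peaks as independent, which they are not. After peaks under 500 bp apart were merged, BCL6 had 2 peaks, and the intervals of its ratios over the other stretches included 1.

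Set beside tiles of its own length, each stretch ranked differently. The BCL6 stretch, with 9 peaks in 24 kb, was exceeded by 1 of 8229 other tiles on chromosome 3 and by 20 of 122260 over chromosomes 1 to 22 and X. Most tiles that short held 0 peaks (88.9% and 87.6%), so a high rank takes few peaks. By covered bases, which depend less on how peaks were divided, 6 and 113 of these tiles exceeded the BCL6 stretch. The intergenic stretch, with 28 peaks in 406 kb, was exceeded by 0 of 486 tiles on chromosome 3 and by 45 of 7246 over all these chromosomes. By covered bases, 2 and 90 of these tiles exceeded it. The LPP stretch, with 15 peaks in 740 kb, was exceeded by 30 of 267 tiles on chromosome 3 and by 501 of 3980 over all. For LPP the tiles with more covered bases were 50 and 860. The density of LPP was thus not extreme, although it lay above the median tile, which held 3 peaks.

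In BCL6, all 9 peaks lay in the 7.06 kb at the 5′ end of the gene, and the first 16.7 kb of the stretch, counted from its lower boundary at the 3′ end, held 0. Peaks filled 73.5% of that run, and the 8 gaps between them measured 107 to 534 bp. The tallest peak of the whole locus, at 187462805 to 187463752, was 947 bp wide with a height of 88, above 92.7% of the list. It ended 248 bp short of the rounded 5′ boundary, and its significance value was -56.4. The second tallest of BCL6 lay deeper in the gene, at 187458332 to 187459204, with a height of 55. Its lower neighbour, at 187457460 to 187458225, had a height of 39.

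The other 6 peaks of BCL6 were low, with heights of 23 to 30. The first of the run, at 187456690 to 187457003, was the lowest at 23. The peaks at 187459338 to 187459784, 187459959 to 187460223 and 187460757 to 187460997 had heights of 30, 28 and 26. A peak of 1136 bp, the widest of the stretch, lay at 187461174 to 187462310, with a height of only 29. The last, at 187462477 to 187462686, was the narrowest at 209 bp and also had a height of 29. Height thus had 2 maxima in the gene, one at the 5′ boundary and one about 5.2 kb inside it, with heights of 26 to 30 between them.

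Upstream of the boundary the run went on with 2 peaks of the intergenic stretch. They lay at 187465758 to 187466118 (height 34) and 187467702 to 187468668 (height 46), with highest points 1.8 and 3.8 kb from the boundary. Stitched at 12.5 kb, the 11 peaks formed a cluster of 11.98 kb, of which peaks covered 54.4%. Over chromosomes 1 to 22 and X, 101 clusters held 10 or more peaks. Of the 100 others, 0 were shorter and 0 were as fully covered; the medians over the 101 were 36.7 kb and 22.97%. The tallest peak was ordinary for such a cluster, since 54 of the 100 others had a taller one. With peaks under 500 bp apart merged, the cluster no longer reached 10 peaks.

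**Figure D4:**
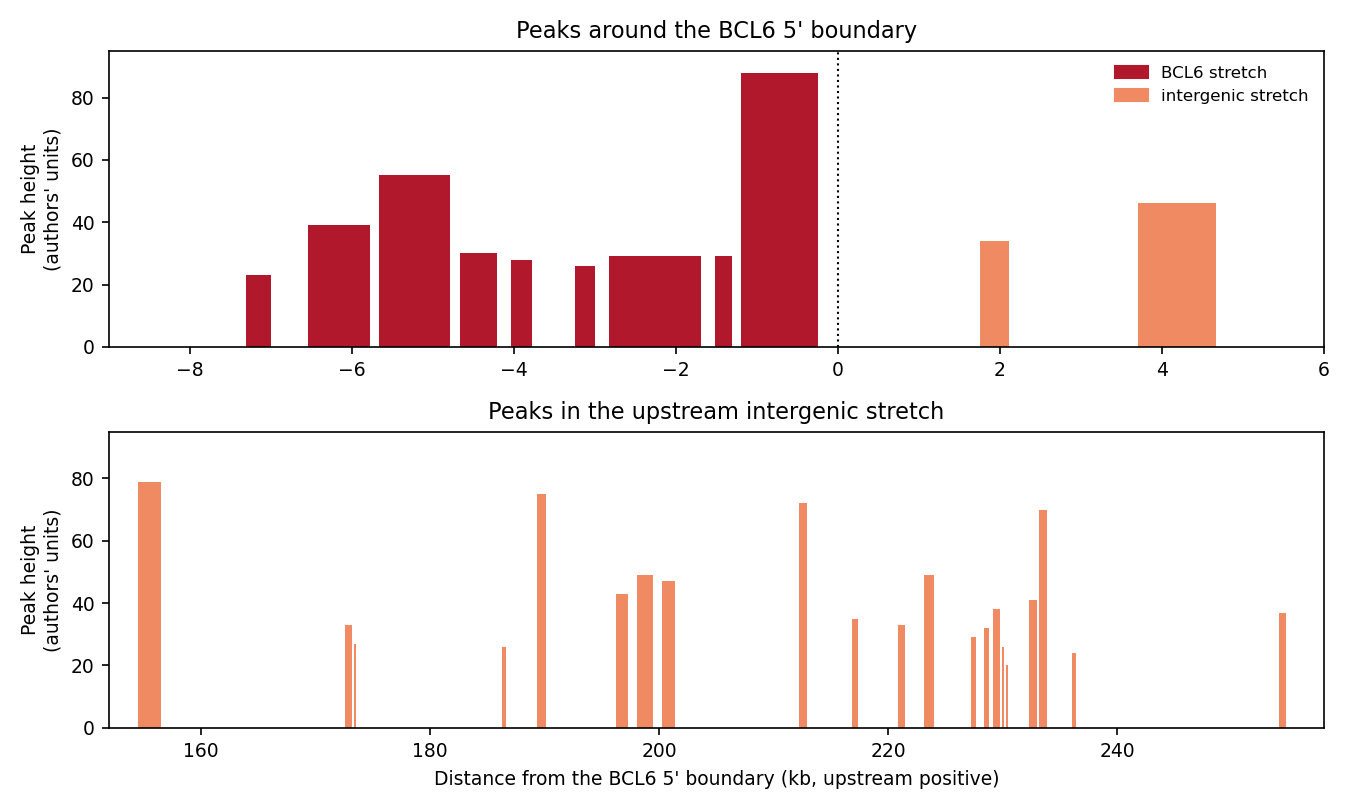
Each bar is 1 KMT2D peak, drawn at its width (x axis, kb from the BCL6 5′ boundary, upstream positive) and height (y axis, authors' units), around the boundary (upper panel) and in the upstream intergenic stretch (lower panel). The 9 peaks of BCL6 stand side by side with gaps of at most 534 bp, while the upstream peaks are spread over many kb.

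Peaks of the intergenic stretch were sparser toward both ends than in its middle. From the last peak of the BCL6 cluster to the next listed peak there was a gap of 77.8 kb, the longest of the stretch. A single low peak at 187546493 to 187546979 (height 27) followed, and then another gap of 71.5 kb. Between 150 and 300 kb upstream of BCL6, limits chosen after the values were seen, lay 21 of the 28 peaks and 80.5% of the bases covered in the stretch. The 19 peaks between 187.6 and 187.7 Mb made this the fullest of 1976 tiles of 100 kb on chromosome 3. Over all chromosomes examined, 10 of 29359 such tiles held more.

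The tallest upstream peak stood apart from the others. It lay at 187618476 to 187620563, with a height of 79, and was 2087 bp wide, the widest of the locus and wider than 98.2% of the list. Stitched at 12.5 kb it was a lone peak, since its nearest neighbour began 16.03 kb away. A pair at 187636597 to 187637517, with heights of 33 and 27, formed a small cluster of its own, 12.73 kb from the next peak and so just past the stitching distance.

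The largest cluster of the locus began at 187650245 and ended at 187700348, which is 186.2 to 236.3 kb upstream of BCL6. Its 17 peaks spanned 50.1 kb, and peaks covered 22.1% of it. Of the 100 other clusters of 10 or more peaks, 55 were more fully covered and 77 had a taller tallest peak than this cluster. It had the most peaks of the 266 clusters on chromosome 3, and 16 of 4962 clusters over all chromosomes examined, itself included, had at least 17. Stitched at 25 kb, it grew to 21 peaks over 100.2 kb, from 187618476 to 187718719, and took in the peak of height 79, the pair and the next peak toward LPP. The peak at 187653307 to 187654151 reached 75, that at 187676207 to 187676917 reached 72, and that at 187697178 to 187697841 reached 70. These 3 had heights above 83.5 to 86.9% of the list and stood near the start, the middle and the end of the cluster. The peak of height 72 had the strongest significance value of the locus, -66.8. Between them were lower peaks. The next tallest, both of height 49, lay at 187662056 to 187663452 (1396 bp) and 187687150 to 187687967. A neighbour at 187664235 to 187665372, 1137 bp wide, had a height of 47.

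Toward LPP the peaks became sparser and lower than in the middle of the stretch. A lone peak at 187718073 to 187718719 had a height of 37, and another at 187767801 to 187768185 had a height of 24. The last cluster of the stretch, at 187802607 to 187826693, held 3 peaks with heights of at most 36. Its last peak was 99 bp wide, the narrowest of the locus, and 44.1 kb without a listed peak separated it from LPP. Of the intergenic peaks, 0 lay within 5 kb of the LPP boundary, against 2 within 5 kb of the BCL6 boundary.

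In LPP, the peak at the 5′ boundary was the most prominent. It lay at 187870799 to 187872640, with its highest point 2.0 kb inside the rounded boundary. At 1841 bp it was wider than 96.9% of the list, and its height of 54 was above 68.6%. It was broader and lower than the peak at the BCL6 boundary, which had a height of 88 and a width of 947 bp. It was also a lone peak, whereas the BCL6 one belonged to a cluster of 11.

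The remaining 14 peaks of LPP had heights of 18 to 39. The tallest of them lay at 187931666 to 187932590 (height 39, 924 bp) and 187956776 to 187957278 (height 35). A peak at 187934814 to 187935321 had a height of 34 and one at 188164023 to 188164274 a height of 32. The clusters in the gene held 2 or 3 peaks each. The largest, at 187956776 to 187962005, held 3. Peaks were concentrated toward the 5′ end, with 8 in the first 100 kb and 13 in the first 370 kb, against 2 in the last 370 kb. The longest gap between peaks of the locus, 170.6 kb, separated those 2 peaks. The second of them, at 188470464 to 188471398, was 934 bp wide with a height of 31, so a peak of more than minimal height was still listed far inside the gene.

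The intergenic peaks, as listed, were at the median taller and wider than those of LPP. Median heights were 34.5 (order-statistic interval 28 to 43) in the intergenic stretch and 22 (20 to 34) in LPP, and the median intergenic peak was 594 bp wide (394 to 748 bp), against 192 bp (131 to 507 bp) in LPP. The intervals of both measures overlapped. Of 28 intergenic peaks 4 reached a height of 70 or more, and of 15 LPP peaks 0 did; over chromosomes 1 to 22 and X the share was 16.5%. Both differences were smaller among wider peaks. Peaks of at most 200 bp made up 4 of 28 in the intergenic stretch (14.3%, exact binomial interval 4.03 to 32.7%) and 8 of 15 in LPP (53.3%, 26.6 to 78.7%), against 21.04% of all peaks on these chromosomes. Among peaks wider than that, median heights were 36.5 and 34 in the intergenic stretch and LPP, and median widths 649.5 and 507 bp. Among the highest-scoring 50% of peaks the order of widths was reversed, at 844 bp over 7 intergenic peaks and 1382 bp over the 2 left in LPP.

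As listed, BCL6 lay between them, where the median of 9 peaks was 29 for height (26 to 55) and 446 bp for width (240 to 947 bp). Its intervals overlapped those of both other stretches, and 0 of its peaks were of 200 bp or less. This place between the others did not hold after merging. A merged peak kept the height of its tallest part and spanned the gaps, so it was at least as tall and wide as any part. The rule acted most on BCL6, where 9 peaks became 2, against 28 to 23 in the intergenic stretch and 15 to 14 in LPP. The merged values therefore do not show stronger signal in BCL6. The 2 merged peaks of BCL6 had a median height of 71.5 (55 and 88), against 36 in the intergenic stretch and 24.5 in LPP. Their median width was 3264 bp, against 710 and 324 bp. The wider of them ran from 187456690 to 187460223 and joined 5 listed peaks.

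**Figure D5:**
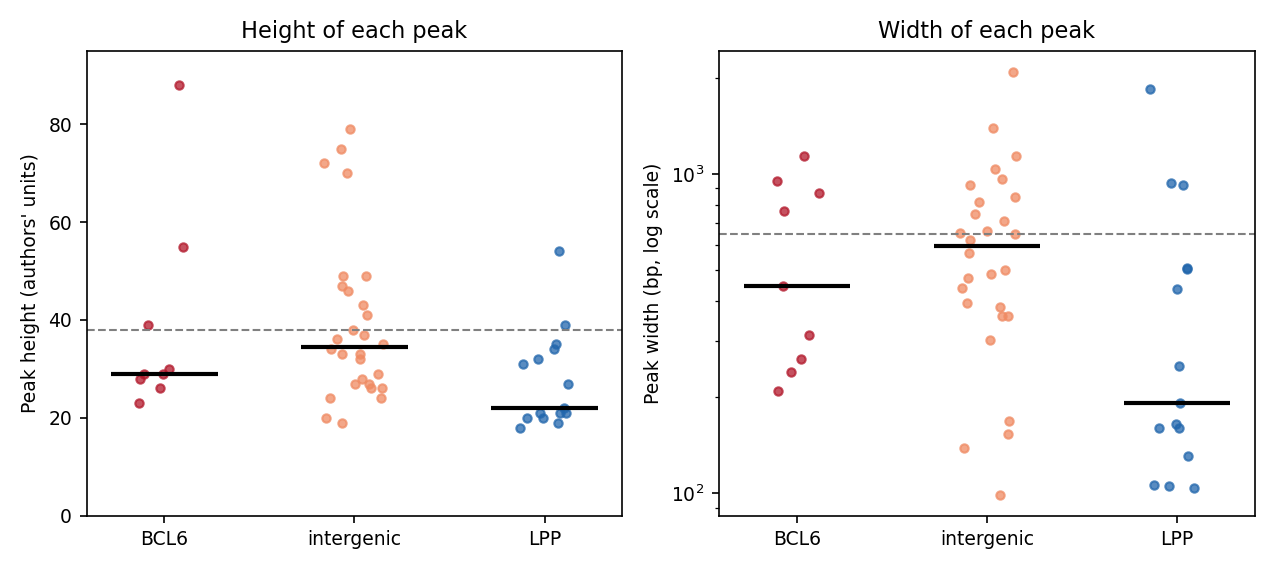
Height in the authors' units (left) and width in bp on a log scale (right) of each KMT2D peak in the BCL6, intergenic and LPP stretches, with the median as a black bar and the median of the rest of chromosome 3 as a dashed line. The medians of height, 29, 34.5 and 22, lie below the dashed line at 38, and single peaks in BCL6 and the intergenic stretch reach 88 and 79.

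Most peaks of the locus lay in clusters, a share that rises with density at a fixed stitching distance. Of the 53 peaks, 42 (79.2%; exact binomial interval 65.9 to 89.2%) lay within 12.5 kb of a neighbour, against 57.95% (55.3 to 60.6%) on the rest of chromosome 3 and 63.4% over chromosomes 1 to 22 and X. The clustered peaks were 9 of 9 in BCL6 (66.4 to 100%), 24 of 28 in the intergenic stretch (67.3 to 95.97%) and 9 of 15 in LPP (32.3 to 83.7%), with intervals that all overlapped. When only the highest-scoring 25% of peaks were kept and stitched anew, 0 of the 5 left in the locus were clustered with one another. In the full list, those of height 70, 72 and 75 belonged to the upstream cluster of 17 peaks. The one of height 88 belonged to the BCL6 cluster of 11, and the one of height 79 was lone. The cluster at the BCL6 boundary and the one of 17 peaks upstream, 181.6 kb apart, together held 28 of the 53 peaks. They held 21.8% and 37.1% of the bases that peaks covered in the locus. The median gap between neighbouring peaks was 171 bp in BCL6, 3.275 kb in the intergenic stretch and 22.7 kb in LPP.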

How the data were processed

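One peak list of 11 columns without a header was analysed. The submitters' processing notes name CASAVA 1.8.2 and the build hg19. Not given in the sources used here are the aligner, the caller and threshold, how the input was used, and whether positions count from 0 or 1. The authors deposited 2 score columns (one negative and like a log10 p-value, called the significance value here), a whole-number signal column read as peak height, whose normalization is not stated, and the highest point's relative position in percent. Heights and scores are the authors' own and serve only to rank peaks within this list. On chromosome 3 the lowest listed height was 18.

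Members and stretches were chosen with earlier results of these data known. Each peak was assigned by its highest point. Background values use chromosomes 1 to 22 and X, leaving out 52 peaks. Tiles on chromosome 3 start at the stretch they are compared with, and elsewhere at multiples of their length, and they include unassembled sequence. Peaks up to 12.5 kb apart were stitched. The peaks named are all of BCL6, the 5 tallest and 3 widest of the other stretches, those nearest each gene boundary, and the largest cluster and longest gap per stretch; others were chosen after their values were seen. Genes other than BCL6 and LPP were not placed, because no hg19 annotation was used here, and exons or introns are not given. Code was tested on simulated data. Software was Python 3.11.15 with scipy 1.17.1, numpy 2.4.6, pandas 2.3.3 and, for plots, matplotlib 3.10.9.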

Additional observations from a re-analysis of the deposited data

How the results depend on the processing

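No paired analysis was possible because the series has 1 ChIP library. A ratio or share was read as moved where it fell outside the counting interval of the value reported. A difference of medians, which has no interval of its own, was read as moved where either median left its order-statistic interval; those intervals are wide. Of 40 alternative values, 33 stayed, 6 moved and 1 changed sign. The 33 include values that could hardly move or that rest on few peaks. Assigning by midpoint left every value unchanged, since no peak was cut by a stretch boundary. With the highest-scoring 25%, BCL6 over the intergenic stretch was 4.23 from 1 and 4 peaks, with an interval of 0.0859 to 42.7. Merging peaks under 500 bp apart gave density ratios of 4.405 for BCL6 over LPP and 1.47 for BCL6 over the intergenic stretch, since it left 2 peaks in BCL6. For the locus over the rest of chromosome 3, the highest-scoring 50% of peaks gave 2.69 (1.34 to 4.85) and the highest-scoring 25% gave 2.52 (0.814 to 5.95), with 11 and 5 peaks left in the locus. With the highest-scoring 50%, the difference of the intergenic and LPP median heights was 23.5, and that of median widths was -538.5 bp, with only 2 peaks left in LPP. Peaks over 200 bp alone gave differences of 2.5 in height and 142.5 bp in width, against 12.5 and 402 bp, with each median still inside its interval. With the highest-scoring 25%, stitched without the other peaks, 0% of the locus peaks left were clustered. LPP kept 0 peaks, so that no ratio over LPP could be given. Counting LPP only over a first part as long as the intergenic stretch, chosen after seeing the data, gave 2.15 (1.08 to 4.53) for the intergenic stretch over LPP and 11.7 for BCL6 over LPP. Assigning peaks by midpoint, moving the boundaries by 5 kb, using covered bases and stitching at 5 or 25 kb left each ratio and share run for them inside its interval, and midpoints and moved boundaries left the differences of medians at 12 to 12.5 in height and 402 bp in width. Since the depth is unknown, the gaps between listed peaks do not show absence of KMT2D.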
